A study of Mus musculus with 14 samples.

Results

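A set of 9 genes of the transforming growth factor beta (TGF-beta) pathway was followed in mouse pancreatic stellate cells (PSCs) and in livers of mice bearing a pancreatic tumor. They were chosen by name: the ligand genes Tgfb1, Tgfb2, Tgfb3 and Inhba, the receptor genes Tgfbr1 and Tgfbr2, the intracellular genes Smad3 and Smad7, and Ltbp2, a latent TGF-beta binding protein family gene. All 9 were found among the 16481 genes of the PSC table and among the 54532 genes of the liver table, and all 9 passed the filter on low values in both.

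TGF-beta is secreted in a latent form that is stored in the matrix and has to be released before it can bind. The active ligand joins a type II and a type I receptor, the type I receptor phosphorylates SMAD2 and SMAD3, and these enter the nucleus with SMAD4, while SMAD7 is induced by the pathway and blocks it. In pancreatic stellate cells the pathway is known for driving the change to contractile, collagen-producing myofibroblasts, and in the liver for its part in fibrosis and immune regulation.

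RNA-seq had been done on 6 PSC libraries and 8 livers. The PSCs were 3 preparations, each split into cells treated with 25 μM Yoda1, a chemical agonist of the mechanically gated channel PIEZO1, and cells given DMSO, the solvent. The cells had been grown on Matrigel for 3 days in 5% serum, and the Yoda1 treatment lasted 24 hours by the methods text but 72 hours by a supplemental legend. The livers were 2 from WT mice, 3 from TRPV4-KO mice and 3 from WT mice given GSK219, a TRPV4 antagonist. TRPV4 is another calcium-permeable channel. By the study's methods, the mice called WT are Piezo fl/fl animals and TRPV4-KO mice carry the Trpv4-/- mutation. The study calls this knockout global, and states that the injected cancer cells have functional TRPV4. By its methods the antagonist was gavaged daily at 10 mg/kg, and no vehicle gavage is stated for WT. By the same source all mice received 100000 KPCY cells, a mouse pancreatic cancer line, in the pancreas 20 days before collection, and mice outside the survival studies were aged 8 to 12 weeks. So every liver came from a tumor-injected animal, and none from an animal without a tumor.

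Depth was 27312894 to 39070539 recovered reads per PSC library, with the Yoda1 library the deeper one in each preparation, and 15567031 to 17395299 counts per liver. PSC levels are the deposited normalised read counts, which correct for depth. Trpv4 was read 43 and 53 times in the WT livers and 15, 5 and 23 times in the TRPV4-KO livers, so some reads remained in every knockout (adjusted p = 0.161, edgeR). Which part of the gene is deleted was not analysed here. One WT, 1 TRPV4-KO and 1 GSK219 liver had Xist reads and the other 5 had Y-linked reads, so both sexes were present in each group. In PSCs, Piezo1 had 13391 to 18321 reads in each library (log2 fold change -0.08, adjusted p = 0.620, limma). The PSC libraries carried the stellate markers Acta2 (2190 RPKM ± 120 in DMSO, SD, n = 3), Col1a1 (1964 ± 151) and Vim (615 ± 49.1). RPKM scales reads to gene length and library size. These were the 3 highest of 10 listed stellate markers. Pdgfrb, Des, Dcn and Pdgfra were at 10.6 to 31.5 RPKM in DMSO on average, and Reln at 0.0128. Gfap, which the study takes as a PSC marker, and Lrat had no entry by name in the PSC table. The PSC libraries also carried epithelial markers, led by Krt18 at 577 RPKM ± 116 and Krt8 at 489 ± 89.2 in DMSO.

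Yoda1-treated PSCs had less RNA of 2 of the 3 TGF-beta ligands, Tgfb2 and Tgfb3, of the receptor Tgfbr2 and of Ltbp2. Tgfb1, Tgfbr1 and Smad7 did not pass the test. Of the 9 genes, 4 fell and none rose at an adjusted p under 0.05 (limma on log2 of the value plus 1). Over all 15145 genes tested, 2.47% fell and 2.19% rose. The count of 4 depends on how limma estimates the spread. With a variance that follows expression level and a robust prior, as used here, 4 genes passed; with neither, 2 passed against 2.34% of all genes, Tgfb3 (adjusted p = 0.0199) and Ltbp2 (0.0480), and Tgfb2 (0.0505) and Tgfbr2 (0.0751) did not. Requiring a log2 fold change over 1 in size as well left Tgfb2 and Tgfb3, against 1.52% of all genes. Fitting the preparation as a block brought the count to 6, of which 5 fell and 1 rose, against 18.2% of all genes (9.55% lower and 8.68% higher). Of the 9, Tgfb3 alone passed without DMSO preparation 1, DMSO preparation 2 or Yoda1 preparation 2, and 2 passed without Yoda1 preparation 1. These 4 fits called 0.912%, 0.26%, 0.247% and 1.67% of all genes. The block without trend and robust prior called 2 of the 9, Tgfb2 (adjusted p = 0.0373) and Tgfb3 (0.0414), against 3.99% of all genes.

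The 4 genes that fell lie in build GRCm38 as follows, with Tgfb3 and Ltbp2 on the same chromosome. Tgfb2 (ENSMUSG00000039239) lies at chr1:186622792-186705989 and Tgfb3 (ENSMUSG00000021253) at chr12:86056745-86079041. Tgfbr2 (ENSMUSG00000032440) lies at chr9:116084293-116175360 and Ltbp2 (ENSMUSG00000002020) at chr12:84783212-84876532. The values are per gene, as deposited.

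**Figure D1:**
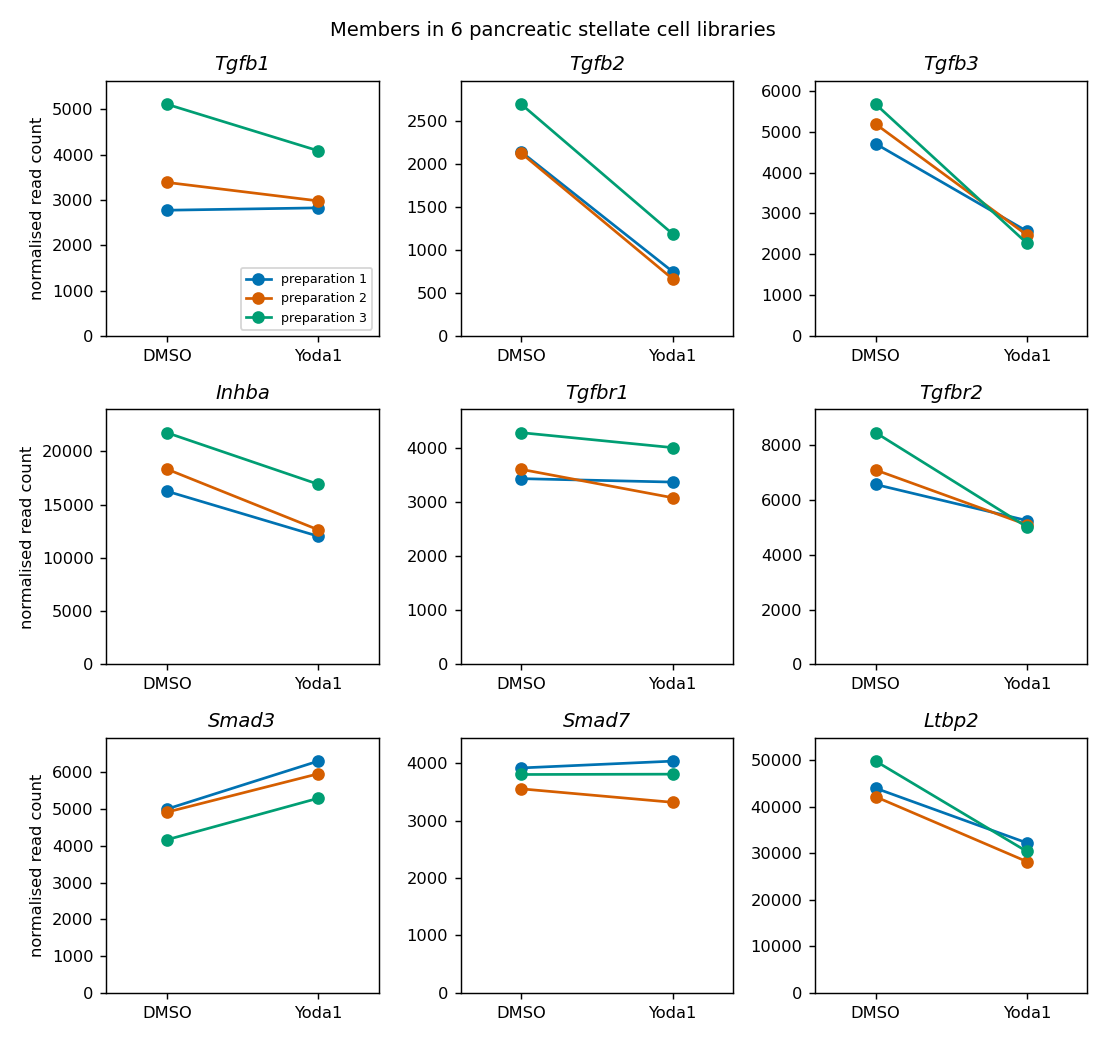
Normalised read count (vertical axes, from 0) of the 9 genes in DMSO and Yoda1 PSC libraries; each point is a library and each line joins the libraries of 1 of the 3 preparations. All 3 lines go down for Tgfb2, Tgfb3, Tgfbr2, Ltbp2, Inhba and Tgfbr1 and up for Smad3, while those of Tgfb1 and Smad7 do not all go the same way.

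Tgfb2, a TGF-beta ligand, showed the largest change of the 9. Its normalised read count was 2141, 2126 and 2695 in the DMSO libraries of preparations 1, 2 and 3 and 750, 665 and 1188 in the Yoda1 libraries. The groups did not overlap, as for 15.1% of all genes in this direction, and Yoda1 cells kept 35.0%, 31.3% and 44.1% of their own DMSO level. The log2 fold change was -1.46 (SE 0.22, 95% interval -1.99 to -0.92, adjusted p = 0.0218). Leaving out any 1 library other than Yoda1 preparation 3 raised the adjusted p to between 0.0606 and 0.102; without that library it was 0.00439.

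Tgfb3, also a ligand, was the most abundant of the 3 in DMSO cells per length. It had 4705, 5187 and 5674 normalised reads in DMSO and 2564, 2471 and 2270 in Yoda1, and the groups did not overlap. The log2 fold change was -1.09 (SE 0.08, adjusted p = 0.00497), with the Yoda1 level at 54.5%, 47.6% and 40.0% of DMSO in the 3 preparations. It was the 1 gene of the 9 that passed under each alternative fit and with any 1 library left out, at an adjusted p of at most 0.0431.

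Tgfb1, the TGF-beta ligand most used in culture experiments, gave 2776, 3390 and 5116 normalised reads in DMSO and 2828, 2982 and 4089 in Yoda1. The groups overlapped, preparation 3 was the highest in both, and the log2 fold change of -0.16 had an interval from -0.74 to 0.42 (adjusted p = 0.735). Without DMSO preparation 3 its sign turned, to 0.09. Inhba encodes the subunit of activin A, which signals through SMAD2 and SMAD3 by other receptors. It was at 16270, 18345 and 21763 in DMSO and at 12043, 12649 and 16926 in Yoda1. Each preparation was lower with Yoda1, at 74.0%, 68.9% and 77.8% of DMSO, but the groups overlapped. The log2 fold change of -0.44 (SE 0.16) did not pass without the block (adjusted p = 0.167) and passed with it (0.00560), but not with the block in limma without trend and robust prior (0.0567). Without the block it passed in 1 of the 6 fits that left out a library, that without Yoda1 preparation 3 (-0.60, adjusted p = 0.0393), where 7.05% of all genes passed.

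The makeup of the ligand pool was compared within each library. Per length, Tgfb3 made up 57.6% ± 3.9 of the summed Tgfb1, Tgfb2 and Tgfb3 RPKM in DMSO cells and 47.6% ± 6.9 in Yoda1 cells (SD, n = 3). Tgfb1 made up 27.4% ± 4.3 and 42.7% ± 4.8, and Tgfb2 15.0% ± 0.89 and 9.70% ± 2.19. The summed level was 70.0, 77.9 and 95.6 RPKM in DMSO and 43.9, 43.5 and 51.1 in Yoda1, lower in 3 of 3 preparations. On the log2 scale the Tgfb2 to Tgfb1 ratio was lower with Yoda1 by 1.54, 1.49 and 0.86 in the 3 preparations, and the Tgfb3 to Tgfb1 ratio by 0.90, 0.88 and 1.00. For each of these the 2 groups did not overlap and the two-sided exact permutation p was 0.1, the smallest that 3 against 3 allows (adjusted p = 0.125 over 5 such tests). This permutation does not use the pairing by preparation and cannot come under 0.05. The Tgfb2 to Tgfb3 ratio changed by -0.64, -0.61 and 0.14 on the log2 scale in the 3 preparations, not all in the same direction (exact permutation p = 0.4).

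**Figure D2:**
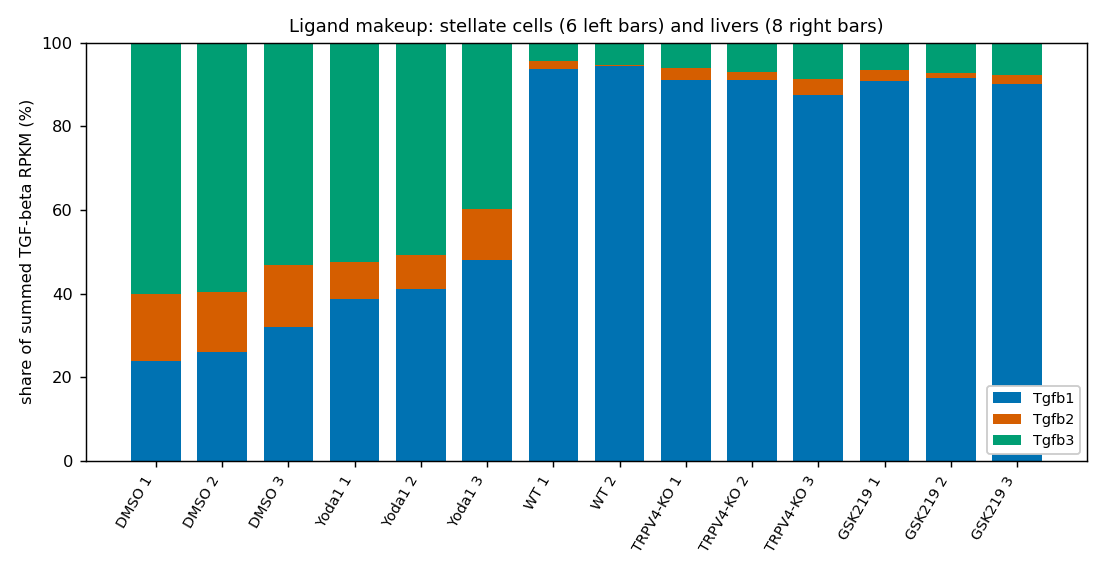
Share of the summed TGF-beta ligand RPKM (vertical axis, percent) taken by Tgfb1, Tgfb2 and Tgfb3 in each library; the 6 bars at the left are PSCs and the 8 at the right are livers. Tgfb1 takes 23.8% to 48.1% of the pool in PSCs and 87.5% to 94.5% in livers.

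Of the receptor genes, Tgfbr2 passed and Tgfbr1 did not. Tgfbr2, the type II receptor that binds the ligand, had 6571, 7102 and 8464 normalised reads in DMSO and 5255, 5100 and 5021 in Yoda1, with no overlap. It fell by 0.52 on the log2 scale (SE 0.10, adjusted p = 0.0357); 4 of the 6 leave-one-out fits put it above the threshold, up to 0.146. Tgfbr1, the type I receptor kinase, had 3437, 3609 and 4287 in DMSO and 3373, 3084 and 4011 in Yoda1. These groups overlapped, and the log2 fold change was -0.12 (interval -0.41 to 0.18, adjusted p = 0.615). The log2 Tgfbr2 to Tgfbr1 ratio was lower in each Yoda1 library than in any DMSO library, by 0.40 on average. Its change was -0.30, -0.25 and -0.66 in the 3 preparations. The exact permutation p was 0.1, the smallest possible (adjusted p = 0.125). Such a test cannot come under 0.05, so it does not decide whether the 2 receptors changed differently.

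Neither Smad gene passed with limma without the block. Smad3, which carries the signal to the nucleus, was at 4995, 4911 and 4162 in DMSO and 6298, 5953 and 5289 in Yoda1. Each Yoda1 library was above every DMSO library, as for 14.9% of all genes in this direction. The log2 fold change of 0.32 (SE 0.10) gave an adjusted p of 0.121 without the block (limma), 0.00846 with it, 0.0669 with the block but neither trend nor robust prior, and 0.0491 with DESeq2. Smad7, the inhibitory Smad, was at 3915, 3551 and 3801 in DMSO and 4034, 3317 and 3807 in Yoda1. Its groups overlapped and its log2 fold change was -0.02 (interval -0.22 to 0.18, adjusted p = 0.923).

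Ltbp2, a matrix protein of the latent TGF-beta binding protein family associated with microfibrils, was the most abundant of the 9 per length. Its normalised read count was 44009, 42170 and 49832 in DMSO and 32251, 28230 and 30406 in Yoda1, with no overlap. It fell by 0.58 on the log2 scale (SE 0.09, adjusted p = 0.0196), to 73.3%, 66.9% and 61.0% of DMSO in the 3 preparations. The adjusted p went above the threshold, to 0.0725, 0.0869 and 0.102, without DMSO preparation 1, DMSO preparation 2 or Yoda1 preparation 2.

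**Figure D3:**
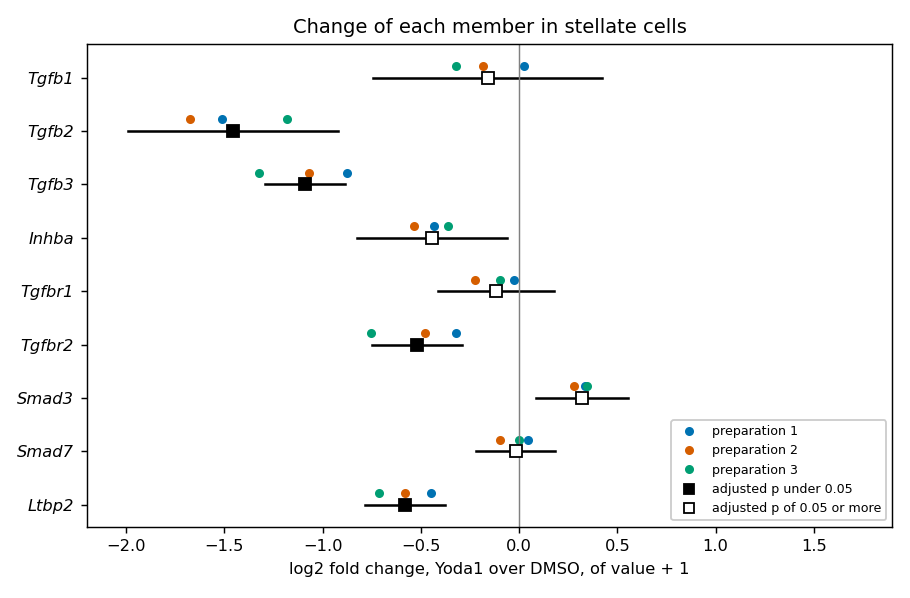
Log2 fold change of Yoda1 over DMSO (horizontal axis) for the 9 genes in PSCs. Squares with bars are the fitted value and its 95% interval, filled where the adjusted p was under 0.05, and circles are the 3 preparations; the filled squares are Tgfb2, Tgfb3, Tgfbr2 and Ltbp2.

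In order of level per length, DMSO cells had Ltbp2 (168 RPKM), Inhba (89.0) and Tgfb3 (46.4) first, each above the range of the next gene. Tgfbr2 (27.3), Smad3 (25.6), Smad7 (25.2), Tgfb1 (22.6) and Tgfbr1 (17.5) followed with overlapping ranges between neighbours, and Tgfb2 (12.1) was last. In Yoda1 cells Ltbp2 (112) and Inhba (65.7) stayed first, Smad3 (31.9) came next and above the range of the rest, Tgfb3 (21.8) lay among Smad7 (24.9), Tgfb1 (19.8), Tgfbr2 (19.0) and Tgfbr1 (16.2) with overlap between neighbours, and Tgfb2 (4.54) was last.

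The promoters of Tgfb2, Tgfb1 and Tgfbr2 are shown, a TGF-beta ligand that fell, one that did not pass and the receptor that fell, to set the letters before their starts side by side. The windows are the 250 bases before the RefSeq start of each gene, 5′ to 3′, in build GRCm38.p6: chr7:25686752-25687001 on the plus strand for Tgfb1, chr1:186705990-186706239 on the minus strand for Tgfb2, and chr9:116175364-116175613 on the minus strand for Tgfbr2. Capitals mark CAGAC (bound by SMADs), TGACG (part of the cAMP response element) and TATAAA, on either strand.
Tgfb1: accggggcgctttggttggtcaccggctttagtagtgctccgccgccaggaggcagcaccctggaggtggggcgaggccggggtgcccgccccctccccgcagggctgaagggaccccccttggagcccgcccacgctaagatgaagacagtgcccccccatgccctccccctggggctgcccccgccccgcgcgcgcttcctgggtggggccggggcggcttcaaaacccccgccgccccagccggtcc
Tgfb2: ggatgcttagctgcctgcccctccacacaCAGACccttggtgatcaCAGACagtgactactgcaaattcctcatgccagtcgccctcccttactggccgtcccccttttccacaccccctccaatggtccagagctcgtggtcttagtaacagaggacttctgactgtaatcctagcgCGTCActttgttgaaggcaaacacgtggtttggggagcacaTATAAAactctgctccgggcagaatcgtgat
Tgfbr2: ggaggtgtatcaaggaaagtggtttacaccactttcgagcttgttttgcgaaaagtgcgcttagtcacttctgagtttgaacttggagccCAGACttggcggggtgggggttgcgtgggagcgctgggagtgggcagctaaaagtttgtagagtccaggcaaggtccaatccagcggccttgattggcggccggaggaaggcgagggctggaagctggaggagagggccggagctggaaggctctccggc
The Tgfb1 window was 75.2% G and C and held none of these letters. The Tgfb2 window was 53.6% G and C, with CAGAC in 2 places, TGACG on the opposite strand and TATAAA 31 bases before the start. Over all 32851 windows of this length the median G and C content was 52.4%, and 42.2% held CAGAC, 17.8% TGACG and 12.4% TATAAA. Windows of 7 of the 9 genes were read from the RefSeq table. No window was read for Tgfb3, which has no entry there, or for Smad7, which was left out. Of the windows read, CAGAC occurred in those of Tgfb2, Ltbp2, Tgfbr2 and the second of 2 Tgfbr1 windows. It did not occur in those of Tgfb1, Inhba or Smad3. TATAAA occurred in those of Tgfb2 and Inhba (91 bases before the start), and TGACG in that of Tgfb2. Neither TGANTCA, bound by AP-1 (in 6.75% of all windows), nor CATTCC, bound by TEAD (12.6%), occurred in any of them. A match of letters is a description of the sequence and not a binding site.

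The rest of the pathway was read from 5 lists. Their background is the 4.66% of all genes that passed in either direction, and for counts with the block 18.2% (9.55% lower and 8.68% higher). Without DMSO preparation 1, DMSO preparation 2, Yoda1 preparation 1 or Yoda1 preparation 2 the share over all genes was 0.912%, 0.26%, 1.67% and 0.247%, and without trend and robust prior 2.34%. The block without both options called 3.99% of all genes, and of the lists 5 target genes, 2 latency genes, 1 gene of the Smad list, 2 BMP branch genes and none of the other ligands and receptors. Of 26 target genes of TGF-beta signaling, 9 fell, none rose and 24 had a negative log2 fold change, with a median of -0.50 against -0.01 over all genes tested. With the block 16 fell, against 9.55% of all genes. Without DMSO preparation 1, DMSO preparation 2 or Yoda1 preparation 2 the count of 9 became 4, 2 and 2, and without trend and robust prior 7. The 4 with the smallest p were Col3a1 (log2 fold change -1.19, adjusted p = 0.00369) and Col1a1 (-0.85, 0.0123), both fibrillar collagens, and the smooth muscle genes Tagln (-1.22, 0.00573) and Cnn1 (-1.46, 0.0129). Ctgf, a matricellular protein gene often used to read the pathway, did not pass (-0.06, adjusted p = 0.867); it was chosen after its values were seen.

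Of 20 tested genes for latency, storage and activation (median -0.27), 2 fell and 1 rose, and with the block 8 fell and 2 rose, against 9.55% and 8.68% of all genes. None of these passed without DMSO preparation 2 or Yoda1 preparation 2, and 1 passed without Yoda1 preparation 1 or without trend and robust prior. Mmp14, a membrane-bound matrix protease, fell by 0.87 on the log2 scale (adjusted p = 0.0100). Fbn1, which encodes the microfibril protein fibrillin-1, fell by 0.80 (0.0245), and Ltbp3, a relative of Ltbp2 that binds latent TGF-beta, rose by 0.33 (0.0418). Mmp2, another matrix protease, was at -0.62 (0.0565). Among 18 genes of Smad transduction and feedback (median -0.06), Fst, which encodes the activin-binding protein follistatin, was the 1 that passed (-1.01, adjusted p = 0.0206). None passed in 4 of the 6 fits without 1 library (DMSO preparations 1 and 2, Yoda1 preparations 1 and 2), and with the block 2 fell and 1 rose, 3 of 18 where 18.2% of all genes passed. Fst's relative Fstl3 was at -0.51 (0.110), the SMAD co-repressor Ski at -0.14 (0.138) and Smad2 at -0.14 (0.197).

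None of 11 other tested ligands and receptors of the branch (median 0.31) passed with limma, 3 had an unadjusted p under 0.05 (as did 22.7% of all genes), and with the block 4 rose, against 8.68% of all genes. The lowest p belonged to Acvr1b, an activin type I receptor (0.36, adjusted p = 0.0511), Gdf15 (0.48, 0.0533), Inhbb, a second activin subunit (0.49, 0.215), and Acvr2a, an activin type II receptor (-0.23, 0.241). Of 20 tested BMP branch genes 1 passed without the block, with it 3 rose and 2 fell (5 of 20, near the 18.2% of all genes), and 10 of the 20 had a positive log2 fold change. Grem1, which encodes the BMP antagonist gremlin 1, rose by 1.96 on the log2 scale (adjusted p = 0.00405). The BMP ligands Bmp6 (0.35, adjusted p = 0.0876) and Bmp4 (-1.34, 0.104) and the receptor Bmpr1a (-0.22, 0.112) did not pass, although Bmp6 and Bmp4 did with the block (0.0467 and 0.00139).

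**Figure D4:**
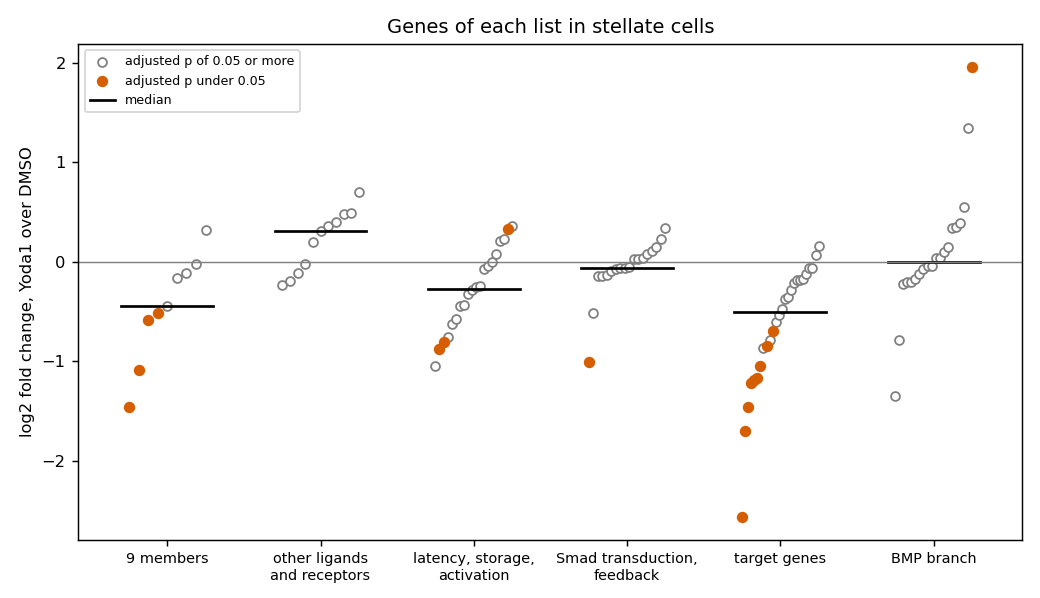
Log2 fold change of Yoda1 over DMSO in PSCs (vertical axis) for the 9 genes and the 5 lists; each circle is a gene, filled where the adjusted p was under 0.05, and the line is the median. The target genes have 9 filled circles, all below 0, and the BMP branch has 1, Grem1.

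Markers of the stellate cell itself moved in the same comparison. Of 8 stellate markers with values, 4 fell (Acta2, Col1a1, Vim and Pdgfrb) against 2.47% of all genes, Pdgfra was at 0.87 (adjusted p = 0.0549) and none rose without the block; with it 5 fell and 2 rose, against 9.55% and 8.68% of all genes. The 2 were Pdgfra (0.000926) and Reln (0.0429), the latter at only 0.0128 RPKM in DMSO and 0.0370 in Yoda1 on average. For all 8, the summed level was 4679 to 5029 RPKM in DMSO and 1868 to 2584 in Yoda1. Acta2 and Col1a1 are also on the target list, and Dcn is on the latency list. The sums of epithelial markers were 1124 to 1582 and 898 to 2046, those of acinar markers 32.5 to 200.1 and 41.1 to 406, those of macrophage markers 58.1 to 65.8 and 52.4 to 81.2, those of endothelial markers 6.21 to 7.76 and 5.42 to 6.39, and those of mesothelial markers 122 to 142 and 159 to 206. The sum of the 4 mesothelial markers did not overlap between the groups, but this rests on Msln, which rose by 0.96 on the log2 scale (adjusted p = 0.00999). Krt19, Wt1 and Upk3b each overlapped, and Upk3b was lower with Yoda1 in 3 of 3 preparations. The endothelial sum rests on Kdr, which fell by 1.07 on the log2 scale (adjusted p = 0.0299), while the other 4 endothelial markers with values had positive log2 fold changes and Lyve1 rose by 1.82 (0.0353), from 0.113 to 0.435 RPKM on average. The macrophage sum rests on Lyz2, at 43.6 RPKM in DMSO and 44.3 in Yoda1 on average. Without overlap, C1qa and C1qb were lower with Yoda1 and Cd68 was higher, while Lyz2, Csf1r and Ptprc overlapped. Of all genes, 15.1% were lower and 14.9% higher without overlap. None of the 6 macrophage markers tested passed without the block, and 2 fell with it, against 9.55% of all genes. The 3 of 5 Kupffer cell markers and the 1 of 6 hepatocyte markers with values summed to at most 3.01 RPKM in each library. Neutrophils, lymphocytes and Schwann cells had 1 marker each with values, at most at 0.193 RPKM. The other markers of these 5 lists had no entry by name in the PSC table. In bulk RNA, fewer cells of a type and less RNA per cell cannot be told apart, and the part of cell makeup in these results was not tested.

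The genes whose log2 values ran closest to those of Tgfb3 over the 6 libraries were 4930426L09Rik (Pearson r = 0.9985), Gm9913 (0.9982) and Dgkk (0.9979). For Ltbp2 they were Zfp568 (0.9996), Gm12669 (0.9983) and Epb4.1l2 (0.9965). In all, 324 genes exceeded r = 0.95 with Tgfb3 and 235 with Ltbp2. The 6 points share the split into DMSO and Yoda1 and 3 preparations.

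In livers, the 9 genes were compared between WT and TRPV4-KO, between WT and GSK219, and between TRPV4-KO and GSK219, to ask whether losing or blocking TRPV4 in tumor-bearing mice went with other TGF-beta pathway RNA. None passed in any of the 3 comparisons with edgeR. Over all 15118 genes 0.291%, 0% and 0.106% passed. At an unadjusted p under 0.05, Tgfb1 alone of the 9 was found in each comparison with WT, where 17.1% of all genes were found against TRPV4-KO and 8.22% against GSK219, and no gene of the 9 in TRPV4-KO against GSK219. DESeq2 called Tgfb1 in WT against TRPV4-KO and none of the 9 in the other 2. In WT against GSK219, 1242 of all genes had an unadjusted p under 0.05 and DESeq2 called 115. The 2 comparisons with WT share its 2 livers.

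Per length, Tgfb1 had the most RNA of the 4 ligand genes among the 9 in liver. Its counts were 602 and 478 in WT, 287, 234 and 327 in TRPV4-KO, and 272, 354 and 360 with GSK219. Both WT livers were above all the others, at 37.2 and 27.9 CPM (counts scaled to library size) against 15.2 to 18.9 in TRPV4-KO and 17.1 to 21.5 with GSK219. Groups did not overlap with WT higher for 17.7% of all genes against TRPV4-KO and 15.6% against GSK219. The log2 fold change of WT over TRPV4-KO was 0.90 (SE 0.17, 95% interval 0.50 to 1.30, adjusted p = 0.0898, edgeR), and over GSK219 0.70 (SE 0.17, adjusted p = 0.433). Several other fits put the first under the threshold, and those given here also called more genes in general. Among them were DESeq2 (adjusted p = 0.00187, with 5.49% of all genes called), no filter on low counts (0.0240, 0.732%), a term for sex (0.0302, 3.54%) and the fit without TRPV4-KO replicate 3 (0.0315, 8.64%). It did not pass with the other fits that left out a liver or with the 2 groups alone, where the adjusted p was 0.0919 to 0.512. Among livers with Xist reads it was at 37.2 CPM in WT, 18.9 in TRPV4-KO and 21.5 with GSK219. Among those with Y-linked reads it was at 27.9 in WT, 18.1 and 15.2 in TRPV4-KO, and 17.1 and 21.4 with GSK219.

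Summed macrophage, Kupffer cell, neutrophil and stellate markers were, like Tgfb1, higher in both WT livers than in any other, and summed hepatocyte markers were lower. The summed level of 7 macrophage markers was 569 to 727 RPKM in WT, 186 to 370 in TRPV4-KO and 190.1 to 445 with GSK219. That of 5 Kupffer cell markers, the resident liver macrophages, was 473 to 541, 121 to 288 and 136 to 331, and that of 8 neutrophil markers 60.3 to 77.1, 2.23 to 9.76 and 3.38 to 8.14. Stellate markers summed to 57.0 to 75.1, 23.5 to 52.9 and 32.0 to 51.8, with a positive log2 fold change of WT for 10 of 10 in both comparisons, endothelial markers to 87.1 to 96.7, 58.4 to 86.6 and 63.6 to 89.1, and hepatocyte markers to 24187 to 28698, 33474 to 41980 and 32658 to 37480. The hepatocyte sum rests on Alb, the 1 of the 6 markers that was lower in both WT livers than in any other (13508 to 18948 RPKM in WT, 23095 to 31609 in TRPV4-KO and 21965 to 26375 with GSK219), while Apoa1 was higher in WT by its mean. None of the macrophage, Kupffer cell, stellate or hepatocyte markers passed in either comparison with WT. Of 7 neutrophil markers tested, 3 were called higher in WT than in TRPV4-KO, where 0.291% of all genes passed. None was called against GSK219, where 0% of all genes passed. Up to 3 of the 8 were at 0 in a TRPV4-KO liver and up to 2 in a GSK219 liver. Lymphocyte markers overlapped between the groups, with sums of 1.79 to 3.26, 2.57 to 5.48 and 2.05 to 2.97 RPKM. Epithelial markers summed to 372 to 405, 239.6 to 389 and 279.8 to 351, and these sums are mostly Krt8 and Krt18 (188 and 181 RPKM in WT on average), which hepatocytes also express. The ductal markers Krt19, Epcam and Krt7 each averaged under 1 RPKM in every liver group, and Krt19 was at 0.710 in WT, 0.959 in TRPV4-KO and 0.548 with GSK219. The part of these cells in the Tgfb1 values was not tested.

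**Figure D5:**
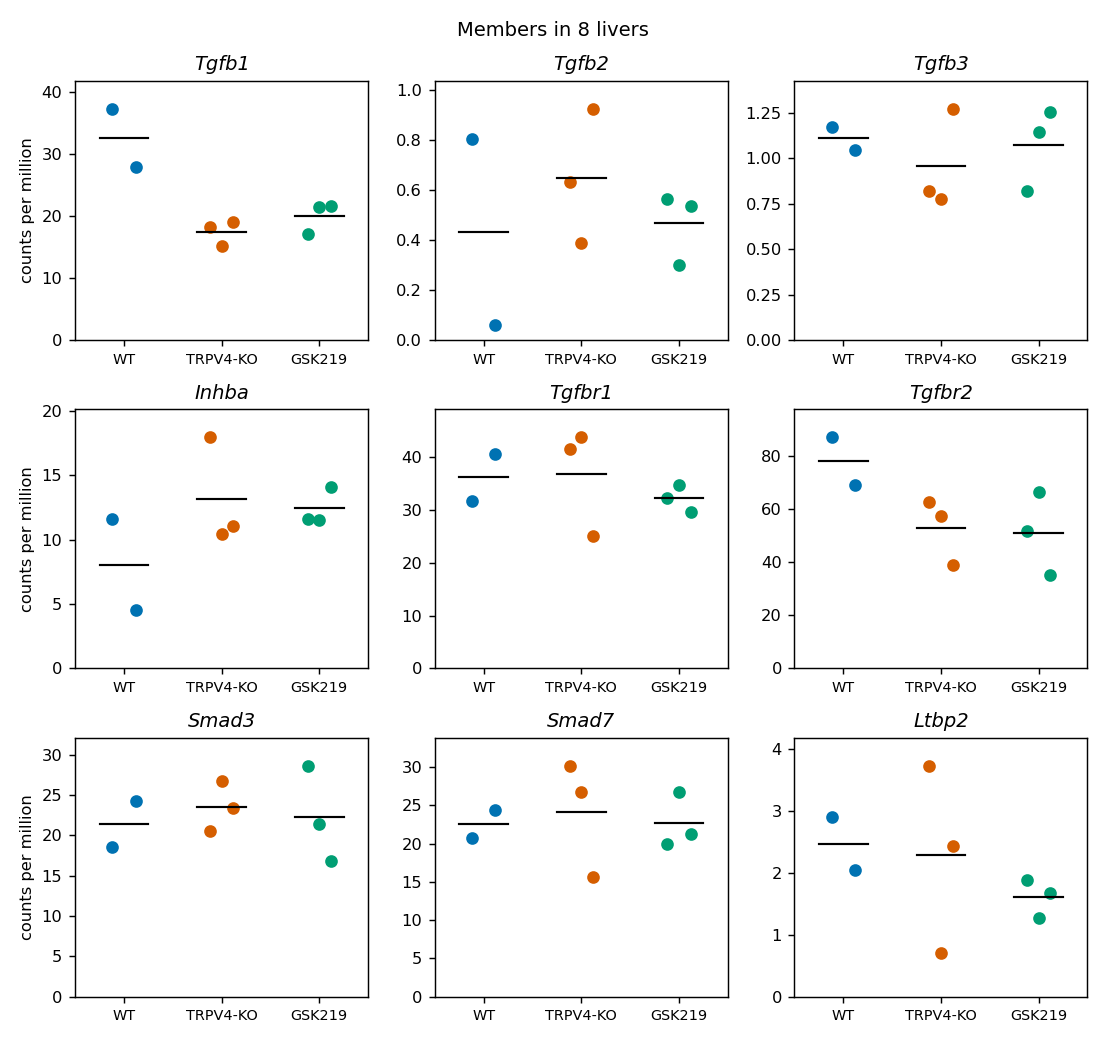
CPM, counts scaled to library size (vertical axes, from 0), of the 9 genes in each liver; points are livers, bars are group means, and the groups are 2 WT, 3 TRPV4-KO and 3 GSK219 livers. Both WT points lie above all others for Tgfb1 and Tgfbr2, and the groups overlap for most of the rest.

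Tgfbr2 was the most abundant of the 9 in every liver group by its mean. It had 1409 and 1186 counts in WT, 994, 887 and 674 in TRPV4-KO, and 821, 1101 and 587 with GSK219. Scaled for depth, both WT livers were above the rest, but the log2 fold changes of 0.56 (SE 0.28, adjusted p = 0.363) against TRPV4-KO and 0.61 (SE 0.28, adjusted p = 0.632) against GSK219 did not pass. Tgfbr1 had 514 and 697 counts in WT, 658, 676 and 434 in TRPV4-KO, and 513, 576 and 496 with GSK219, with overlap throughout.

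Inhba was at 187 and 78 in WT, 284, 161 and 191 in TRPV4-KO, and 185, 191 and 236 with GSK219. WT replicate 2 was the lowest liver, and the log2 fold changes of WT over the others were -0.71 (interval -1.60 to 0.19) and -0.63 (-1.52 to 0.27). They rest on that liver: without it they were -0.17 and -0.11, and without WT replicate 1 they were -1.52 and -1.46. Smad3 (281 to 455 counts) and Smad7 (269 to 477 counts) overlapped in all 3 comparisons, with log2 fold changes between -0.13 and 0.09. Tgfb2 (1 to 16 counts), Tgfb3 (12 to 22) and Ltbp2 (11 to 59) were near the lower end of what this depth can compare. Tgfb2 had 13 counts in 1 WT liver and 1 in the other, and its interval against TRPV4-KO ran from -2.51 to 1.30. Ltbp2 was higher in both WT livers than in any GSK219 liver (log2 fold change 0.62, SE 0.57, adjusted p = 0.872) and overlapped with TRPV4-KO.

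Ligand makeup set liver apart from PSCs. Tgfb1 was 94.2% ± 0.50 of the ligand RPKM in WT (SD, n = 2), 89.9% ± 2.1 in TRPV4-KO and 90.9% ± 0.68 with GSK219 (n = 3 each), and Tgfb3 was 4.86%, 7.29% and 7.21%. In PSCs Tgfb3 led in 5 of 6 libraries, and Tgfb1 in the Yoda1 library of preparation 3. The shares are within a library, but the 2 tables were normalised separately and no test was run between them.

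The same 5 lists gave no call in WT against TRPV4-KO, and their medians were above 0 for targets (0.68), latency genes (0.76), other ligands and receptors (0.39) and the BMP branch (0.28), and below 0 for Smad transduction and feedback (-0.20); over all genes it was -0.01. Against GSK219 the medians were 0.41, 0.63, 0.18, -0.09 and -0.06 in the same order, again with no call. The lowest p among the targets belonged to the collagens Col3a1 (1.85, adjusted p = 0.136) and Col5a1 (1.14, 0.262) and the transcription factors Junb (1.41, 0.151) and Bhlhe40 (-0.59, 0.220). Among latency genes they were the proteases Mmp2 (1.87, 0.0529) and Mmp9 (2.22, 0.131), then Fbn1 (1.31, 0.153) and Ltbp1 (1.07, 0.168). In the Smad list they were Fst (2.23, 0.0526), the co-repressor Tgif1 (0.67, 0.115), the feedback inhibitor Pmepa1 (0.83, 0.226) and the phosphatase Ppm1a (-0.36, 0.236). The other ligands and receptors had Inhbb (1.35, 0.132), the endothelial receptor Acvrl1 (1.03, 0.159), the co-receptor Tgfbr3 (0.70, 0.213) and Acvr1b (0.45, 0.353). The BMP branch had Bmp6 (-1.18, 0.123), the target Id1 (0.76, 0.157), Smad1 (0.50, 0.191) and the ligand Gdf2 (1.01, 0.205). DESeq2, which called 5.49% of all genes here, called 2 targets, 4 latency genes, 2 genes of the Smad list, 2 other ligands and receptors, and 1 BMP branch gene. Without TRPV4-KO replicate 3, where 8.64% of all genes were called, the counts were 2, 6, 4, 2 and 1.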

How the data were processed

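Reads were trimmed with Trim Galore and aligned with HISAT2 2.0.5 per the labels; the counting program and annotation are not given in the sources used here. The liver table holds raw gene counts as deposited by the authors (98.3% of 54409 matched genes have GRCm38 coordinates); 7 of its columns match no sample and were not used. The PSC table also holds the authors' own fold changes, test statistics and p-values of Yoda1 against DMSO, which were not used. The PSC table holds a signal that the authors made by dividing gene counts by a size factor: 100% of 98886 values were whole multiples of a step, within 0.02 reads. Gene lengths deposited by the authors in the liver table gave RPKM.

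PSCs were tested with limma 3.58.1 on log2 of the value plus 1, for genes of at least 10 in at least 3 libraries, and livers with edgeR 4.0.16 (TMM, filterByExpr with a minimum count of 10, robust quasi-likelihood test, all 8 livers together; R 4.3.3). P-values were adjusted by Benjamini-Hochberg over all genes tested, at a threshold of 0.05. DESeq2 1.42.0 was an alternative. The fixed design named limma's moderated test but not its trend and robust options. Limma without both was run first and called 2 of the 9 genes. All 8 combinations of trend, robust prior and block were then run and their calls seen, and trend with robust prior was adopted because it gave the counts of an earlier processing of these data; it calls 4, and 5 of the others are given as alternatives.

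PSC replicate numbers pair the samples: the labels share a preparation name, and same-numbered samples deviated together (r from 0.26 to 0.53). Liver numbers do not (r from -0.54 to 0.61). PSC RPKM puts the deposited values on 1 common scale, that of the average library. The scripts were tested on simulated data. The 9 genes and all lists were chosen with earlier results of these data known. Named genes were the 9, Trpv4 and Piezo1, and the 4 of each list with the smallest p in PSCs and in WT against TRPV4-KO. Also named were the leading markers of each list, and the 3 genes closest to each of the 2 of the 9 with the smallest p. Ctgf and the markers Gfap, Lrat, Des, Dcn, Pdgfra, Reln, C1qa, C1qb, Cd68, Csf1r, Ptprc, Lyve1, Wt1, Upk3b, Epcam and Krt7 were added after their values were seen. The labels call replicates biological but do not tie PSC preparations to animals, so p-values measure only the spread between these samples. The values of 1 of the 26 target genes, counted with its list and not among the 4 with the smallest p in either comparison, are not reported here.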

Additional observations from a re-analysis of the deposited data

How the results depend on the processing

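In PSCs, 4 of the 9 genes passed under the pseudocounts of 0.1 and 10, no filter, TMM factors, edgeR on recovered reads and limma with trend but no robust prior; 5 passed with DESeq2 and 6 with the replicate block. Fewer passed with a log2 fold change over 1 required as well (2), with limma without trend and robust prior (2), with robust prior but no trend (1), and with the block in limma without both (2). Leaving out 1 library gave 1 to 5. Limma without trend and robust prior was the fit run first; both options, and the 3 other fits with 1 or both left out, were chosen after seeing the data. Over all genes, 705 passed in PSCs, 355 without trend and robust prior, 313 with robust prior alone, 719 with trend alone, 605 with the block without both, 2760 with the block, 230 with a log2 fold change over 1, 692 with edgeR, 1626 with DESeq2 and 37 to 1054 without 1 library. With trend and robust prior, the PSC block changed the calls of Inhba and Smad3 and of no other of the 9; without both, neither passed with the block (adjusted p = 0.0567 and 0.0669). In WT against TRPV4-KO, Tgfb1 made the count 1 in place of 0 with DESeq2, with no filter, with the sex term and with the replicate block (adjusted p = 0.0463; the liver numbers do not pair the livers), and the count was 0 to 1 without 1 liver; there 44 genes passed in all, 830 with DESeq2, 531 with the block, 535 with the sex term, 198 with no filter, 20 with the 2 groups alone and 3 to 1291 without 1 liver. In the other 2 liver comparisons the count of the 9 was 0 under each alternative run; over all genes WT against GSK219 gave 0, but 115 with DESeq2, 9 with no filter, 9 with the block, 4 with the sex term, 2 with the 2 groups alone and 0 to 2 without 1 liver, and TRPV4-KO against GSK219 gave 16, but 136 with DESeq2, 44 with no filter, 45 with the sex term and 8 to 141 without 1 liver. No adjusted p came under the threshold for Tgfb2 in livers, which failed the count filter in some fits and then has no value. It has a value in 7 of 8 fits without 1 liver in each comparison. Of the other 7 alternatives, it has a value in 6 for both comparisons with GSK219. With the sex term the sign turned for Tgfbr1 (0.069) and Smad7 (0.0025) against TRPV4-KO and for Tgfb3 (-0.0108), Smad3 (0.005) and Smad7 (0.0574) against GSK219. Without 1 library, log2 fold changes with a turn of sign ranged, in PSCs, Smad7 -0.0787 to 0.0623, Tgfb1 -0.355 to 0.0856; in WT against TRPV4-KO, Ltbp2 -0.317 to 0.64, Smad3 -0.327 to 0.0582, Smad7 -0.334 to 0.0916, Tgfb2 -3.31 to 0.314, Tgfbr1 -0.235 to 0.151; in WT against GSK219, Smad3 -0.269 to 0.169, Smad7 -0.138 to 0.133, Tgfb2 -2.86 to 0.761, Tgfb3 -0.112 to 0.175, Tgfbr1 -0.028 to 0.326; in TRPV4-KO against GSK219, Inhba -0.21 to 0.223, Ltbp2 -0.0238 to 0.933, Smad3 -0.0886 to 0.302, Smad7 -0.097 to 0.329, Tgfbr2 -0.155 to 0.292. None of these had passed. The cause was not tested. Where 1 WT liver is left, it is assumed to vary like the other groups.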
